A study of Mus musculus with 32 samples.

Results

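Probes of the Applied Biosystems mouse array that rosiglitazone (RSG) brought above the detection threshold in dendritic cells are described here. A probe was a member if its signal-to-noise ratio (S/N), which the scanner reports for each spot, was at least 3 on all 4 arrays of RSG-treated PPARg +/-LysCre immature dendritic cells (iDC) and under 3 on at least 3 of the 4 arrays of the vehicle-treated cells. Of 33012 noncontrol probes, 175 met this rule, 2 of them were left out by their probe number, and 173 were kept. The members were thus chosen by the S/N values of these 8 arrays, and their levels in PPARg +/-LysCre iDC are given as a description without a test. The tests concern PPARg fl/-LysCre iDC and the IL-4 macrophages of both genotypes, whose 24 arrays the rule did not use.

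Bone marrow of 8 C57Bl/6 mice was cultured for 9 days with 20 ng/ml IL-4 and either 20 ng/ml M-CSF, which gives IL-4 macrophages, or 20 ng/ml GM-CSF, which gives iDC. Each culture received vehicle (DMSO and ethanol) or 1 uM RSG, so that 4 arrays came from every mouse and each of the 8 groups had 4 mice as replicates. Mice 1 to 4 were PPARg +/-LysCre and kept a wild-type Pparg allele beside a null allele, and mice 5 to 8 were PPARg fl/-LysCre, in which the only functional allele is flanked by loxP sites. All 8 mice carried Cre recombinase under the lysozyme promoter, which is active in myeloid cells, and 1 null Pparg allele, so that no group represents cells with both wild-type alleles, and floxed cells in which Cre did not act keep a working allele. The labels do not give age or sex.

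PPARγ is a nuclear receptor that forms a heterodimer with the retinoid X receptor on DNA and activates transcription when it binds a ligand. RSG is a synthetic agonist of PPARγ of the thiazolidinedione class. In macrophages and dendritic cells PPARγ is known for its control of genes of fatty acid uptake, storage and oxidation, and IL-4 acts on these cells through the transcription factor STAT6.

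Detected probes numbered 13595 to 16683 per array over the 32 arrays. The files name probes by transcript or gene model identifiers, and 311 of the 33012 probes could be given a symbol. Of the 156 genes in the lists of cell type markers, PPARγ targets, lipid genes and IL-4 signalling genes, 2 had a named probe. These were Ear1, listed among the eosinophil markers, and the globin gene Hba-a1, and neither was a member. Whether Ear1 marks eosinophils in these cultures was not tested. Pparg itself was not analysed here, so that neither the genotype nor the cell type labels were checked against their defining genes. Ear1, which encodes a ribonuclease, was detected on all 32 arrays and had a log2 level of 14.98 ± 0.63 (SD, n = 4) in vehicle-treated and 17.79 ± 0.37 in RSG-treated PPARg +/-LysCre iDC, and its part in any result below was not tested. Hba-a1 was detected on 3 of the 4 vehicle and 2 of the 4 RSG arrays of these cells, at 9.99 ± 0.65 and 9.16 ± 0.97. In vehicle-treated macrophages it was at 8.14 ± 0.16 in PPARg +/-LysCre cells, with 0 arrays detected. It was at 11.47 ± 1.93 in PPARg fl/-LysCre macrophages, with 3 arrays detected, and at 9.91 ± 1.08 in PPARg fl/-LysCre iDC. The part of Hba-a1 in any result below was not tested.

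Of the 173 members, 146 (84.4%) carried the identifier of an mCG gene model, 19 that of a cDNA of the AK series, 6 that of a RefSeq transcript and 2 that of another cDNA. On the whole array, 84.6% of the probes carried an mCG identifier. Only 2 members, the probes of mCG142672, shared an identifier. Whether different identifiers belong to the same gene was not checked. Symbols were found for 3 members. They are Aldh3a1, an aldehyde dehydrogenase, Lgals7, which encodes the sugar-binding protein galectin-7, and Zfp945, which encodes a zinc finger protein.

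Promoters of members with a symbol are shown because PPARγ acts through short DNA elements. No promoter entry was found for Aldh3a1. For Lgals7 and Zfp945 the 250 bases before a RefSeq transcription start were read from a table of RefSeq promoters (GRCm38.p6), at chr7:28864136-28864385 on the plus strand and chr17:22867135-22867384 on the minus strand, and are written 5′ to 3′ in the direction of the gene. Capitals would mark the hexamer AGGTCA on either strand, to which the receptor binds.
Lgals7: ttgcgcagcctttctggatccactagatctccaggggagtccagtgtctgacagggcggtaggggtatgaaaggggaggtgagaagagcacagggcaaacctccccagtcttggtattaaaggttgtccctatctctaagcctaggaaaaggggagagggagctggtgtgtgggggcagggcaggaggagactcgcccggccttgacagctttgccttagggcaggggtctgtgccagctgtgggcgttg
Zfp945: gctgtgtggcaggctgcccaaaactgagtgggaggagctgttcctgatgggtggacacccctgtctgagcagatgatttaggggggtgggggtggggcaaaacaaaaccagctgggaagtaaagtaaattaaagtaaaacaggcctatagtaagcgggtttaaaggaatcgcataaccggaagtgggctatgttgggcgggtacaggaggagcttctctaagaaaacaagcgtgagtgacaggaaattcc
Neither window held AGGTCA, which 14.0% of 32851 such windows held, nor 2 direct copies of it with any 1 base between them, which 0.0335% held on either strand. The element of STAT6, TTC and GAA with any 4 bases between them, was in neither window and in 5.85% of all windows. No match says only that these letters are not in these windows.

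In PPARg +/-LysCre iDC the members ranged from probes that crossed the threshold by a small margin to probes that rose by several log2 units. The lowest S/N over the 4 RSG arrays had a median of 4.11 over the members. It lay under 4 for 81 members (46.8%) and at 10 or more for 13. On the vehicle arrays 63 members were under 3 throughout, and 110 passed it on 1 of the 4 arrays. The mean log2 difference between RSG and vehicle had a median of 1.17 and ran from 0.14 to 7.22, with quartiles at 0.71 and 2.13. It reached 1 in 104 members, 2 in 47 members and 4 in 11 members, whereas 33 members differed by less than 1.5-fold. For those 33 the name "switched on" does not describe the level, so that the set is called the RSG-detected probes below. For the 63 members below S/N 3 on every vehicle array, the RSG mean was set against a floor of these arrays. Per vehicle array, the floor was the lowest detected signal of any probe or the probe's own listed value, whichever was higher. The RSG mean lay at least 1.31-fold to at least 117-fold above this floor, with a median bound of 4.38-fold. The floor can lie below the level at which the probe itself would reach S/N 3, and the listed value can be noise. Folds given below as "at least" are bounds over such a floor of the dimmer group and not over the detection limit.

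**Figure D1:**
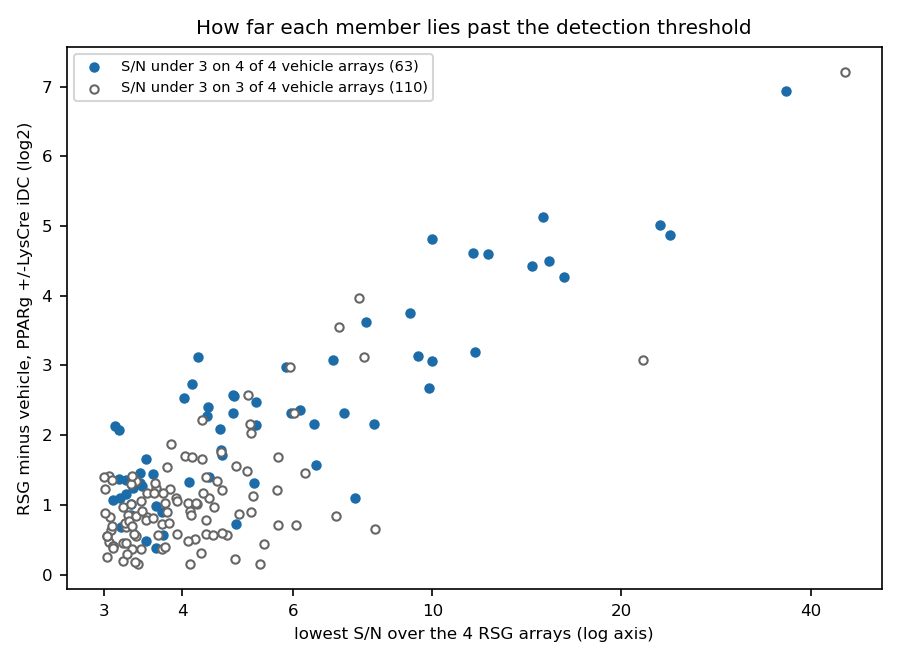
Log2 difference between RSG and vehicle in PPARg +/-LysCre iDC (vertical axis) against the lowest S/N over the 4 RSG arrays (horizontal log axis), 1 point per member, with filled points for the 63 members under S/N 3 on every vehicle array and open points for the 110 that passed it on 1. The 81 members with a lowest S/N under 4 have a median difference of 0.85, and the 13 at 10 or more one of 4.61.

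At the edge of the rule, members and non-members had nearly the same lowest S/N, and the ranges of their differences overlapped. The members nearest to the threshold were mCG1036754.1, the probe of an AK cDNA and mCG123898, whose lowest RSG S/N was 3, 3.01 and 3.02 and whose log2 differences were 1.40, 0.88 and 1.23. The nearest probes outside were that of another AK cDNA, mCG51625.2 and mCG10637.3, with a lowest RSG S/N of 2.99, 2.99 and 2.96 and differences of 0.02, 0.70 and 0.95. An S/N threshold of 2 chose 196 probes, of which 76 were members, and a threshold of 5 chose 179, of which 50 were members. The sets were of similar size, and less than 50% of each were members.

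The largest differences in PPARg +/-LysCre iDC belonged to mCG123381.1 and mCG141486. The log2 level of mCG123381.1 was 6.89, 6.28, 7.65 and 5.94 in vehicle-treated cells of mice 1 to 4 and 14.20, 13.55, 14.01 and 13.87 with RSG. The third vehicle array was the only one of these 4 above the threshold (S/N 3.49), whereas the S/N with RSG was 45.36 to 59.8. For mCG141486 the vehicle levels were 6.37, 8.15, 7.26 and 7.24 and the RSG levels 14.44, 13.79, 14.40 and 14.13, which is at least 117-fold higher. In both cases every RSG array lay far above every vehicle array, and the 4 mice differed by less than 1 log2 unit with RSG. The other 8 of the 10 largest fitted differences were 5.13 for mCG7037.3, 5.01 for mCG7876.2, 4.87 for mCG22780.2, 4.82 for mCG116788.1, 4.61 for mCG16772.1, 4.61 for mCG21883.1, 4.49 for mCG23510.1 and 4.42 for mCG14298.1. All 8 were under S/N 3 on every vehicle array, with bounds of at least 18.2-fold (mCG14298.1) to at least 32.2-fold (mCG7876.2). Since the vehicle values behind these differences are noise, their order is not a measured one, and mCG125252.1, which is outside the 10, had a bound of at least 18.5-fold. The raw signals of most members were low. The mean signal on the RSG arrays had a median of 640 over the members and of 5431 over the 12707 probes detected on all 4 of these arrays.

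Outside the arrays of the rule, between 46 and 117 members were detected per array. The iDC of PPARg fl/-LysCre mice had 61, 46, 85 and 79 members detected with vehicle and 69, 87, 84 and 117 with RSG, in mice 5 to 8. The arrays of the vehicle and the RSG group overlapped in this count, although within a mouse it was higher with RSG in all but mouse 7. The total of detected probes in these cells was 14190 to 15710 with vehicle and 13595 to 16683 with RSG. In PPARg +/-LysCre iDC, by contrast, the rule itself set 173 on every RSG array and 31, 17, 52 and 10 on the vehicle arrays. In the IL-4 macrophages of PPARg +/-LysCre mice, 78, 106, 100 and 93 members were detected with vehicle and 71, 97, 75 and 76 with RSG. In those of PPARg fl/-LysCre mice the numbers were 87, 101, 95 and 105 with vehicle and 92, 90, 85 and 70 with RSG. The macrophage groups overlapped as well, although within a mouse the count was lower with RSG in 4 of 4 PPARg +/-LysCre and in 3 of 4 PPARg fl/-LysCre mice. The total of detected probes also moved, from 15144 to 15918 with vehicle to 13830 to 15250 with RSG in PPARg +/-LysCre macrophages and from 15293 to 16009 to 14197 to 15227, without overlap, in PPARg fl/-LysCre macrophages. The part of the total in the members' count was not tested.

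**Figure D2:**
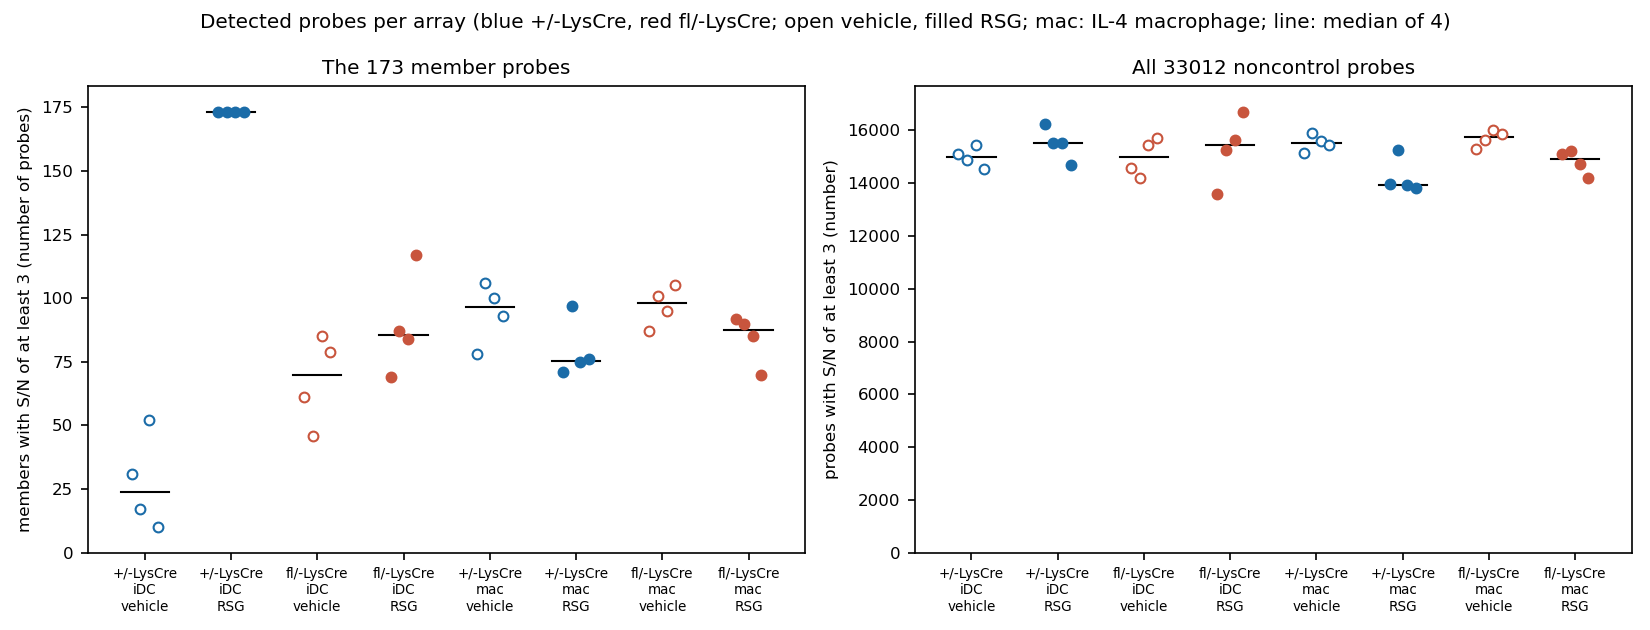
Number of members (left) and of all noncontrol probes (right) with an S/N of at least 3 on each array, by group, with a line at the median of the 4 arrays. The rule fixes the counts of PPARg +/-LysCre iDC at 173 with RSG and limits those with vehicle (10 to 52), whereas in the other 6 groups 46 to 117 members are detected per array and the vehicle and RSG arrays overlap.

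Some RSG-detected probes were measurable in IL-4 macrophages without RSG. On at least 3 of the 4 arrays, 76 members (43.9%) were detected in vehicle-treated PPARg +/-LysCre macrophages and 89 (51.4%) in PPARg fl/-LysCre macrophages. Over all 33012 probes these shares were 42.6% and 43.4%. Among the 17679 other probes that were under S/N 3 on at least 3 vehicle arrays of PPARg +/-LysCre iDC, most of which RSG did not bring to detection there, they were 4.54% and 4.80%. In vehicle-treated PPARg fl/-LysCre iDC, 41 members (23.7%) were detected on at least 3 arrays, against 41.4% of all probes and 1.86% of the others undetected in PPARg +/-LysCre iDC. These shares carry no test, and the members differ from the latter probes by the rule, which required detection with RSG. Across the 4 macrophage groups, 45 members (26.0%) were detected on at least 3 arrays in every one and 66 (38.2%) in none, against 36.5% and 53.3% of all probes. Outside the arrays of the rule, 42 members (24.3%) and 50.8% of all probes reached this level in no group.

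The same rule was applied to the other cells. It chose 58 probes in PPARg fl/-LysCre iDC (0.176% of the 33010 probes other than those left out), of which 7 were members, 21 probes in PPARg +/-LysCre macrophages (0.0636%), of which 1 was a member, and 11 probes in PPARg fl/-LysCre macrophages (0.0333%), of which none was. The shared members are 4.05%, 0.578% and 0% of the 173. In PPARg +/-LysCre iDC the members were 0.524% of all probes. The 7 shared members in iDC were the probe of an AK cDNA, mCG1044137.1, mCG1047291.1, mCG11432.1, mCG123381.1, mCG125252.1 and mCG141486, and the shared member in macrophages was mCG22990.2. With the looser measure of detection on at least 3 arrays, 65 members (37.6%) were detected in RSG-treated PPARg fl/-LysCre iDC, against the 41 (23.7%) of the vehicle arrays above. Of all probes, 42.02% were detected with RSG there, and of the others undetected in PPARg +/-LysCre iDC 2.40%. Both treatments detected 30 members, 35 were detected with RSG alone (20.2%, against 2.52% of all probes) and 11 with vehicle alone (6.36%, against 1.89%). The remaining 97 were detected in neither. Under the strict rule turned around, detection on all 4 vehicle arrays and loss with RSG was met by 5 members in PPARg +/-LysCre macrophages, by 2 in PPARg fl/-LysCre macrophages and by none in PPARg fl/-LysCre iDC. These are 2.89%, 1.16% and 0% of the members, against 0.706%, 0.364% and 0.133% of the 33010 probes.

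Whether the members responded to RSG where the remaining Pparg allele was floxed was asked in PPARg fl/-LysCre iDC. The log2 difference between RSG and vehicle had a median of 0.21 over the 173 members and of 0.01 over all 16620 tested probes, and 112 members (64.7%) were higher with RSG against 51.4% of the tested probes. A difference of at least 1 was reached by 22 members (12.7%) and by 1.58% of the tested probes. Many of these values are not measured levels. In these cells 97 members (56.1%) were under S/N 3 on 2 or more of the 4 arrays with either treatment, as were 12.8% of the tested probes. The RSG arrays of the rule alone would have brought every member into the test, and 42 members passed the filter through no other group. limma with Benjamini-Hochberg adjustment called 3 members higher and none lower (1.73% of the members, against 0.692% of all tested probes called in either direction, 0.367% called higher and 0.325% called lower). At an unadjusted p under 0.05, 21 members were higher and 2 lower, which is 13.3% of the members and compares with 10.9% of the tested probes. Treating the mouse as a block gave 5 calls, where the same fit called 1.22% of all tested probes, and the methods' t-test after adjustment gave none. The fit took its spread from all 16 iDC arrays, those of the rule included, and with only the 8 arrays compared 1 member was called, among 0.0361% of all tested probes. Leaving out mouse 8 left 1 call, and leaving out mouse 5, which stood apart in this group, kept all 3. For the fits without a mouse, the share of all tested probes called is not given here. Ear1 had a level of 14.87 ± 0.35 with vehicle and 17.15 ± 0.45 with RSG in these cells (SD, n = 4), and its part in the members' values was not tested.

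**Figure D3:**
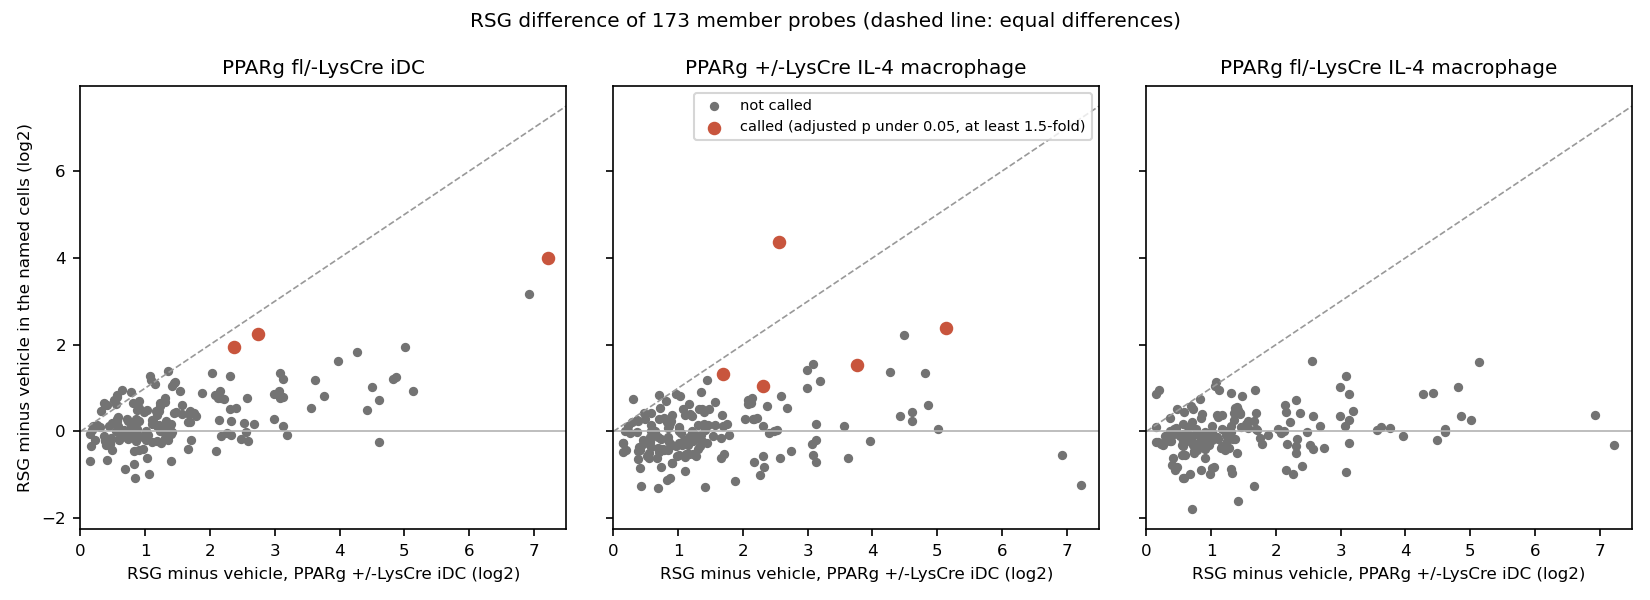
Log2 difference between RSG and vehicle in PPARg fl/-LysCre iDC (left), PPARg +/-LysCre macrophages (middle) and PPARg fl/-LysCre macrophages (right) against that in PPARg +/-LysCre iDC, 1 point per member, with a dashed line where both are equal and the horizontal values set by the rule. Red points are members called by limma, 3 on the left, 5 in the middle and none on the right, and on the left 13 of the 173 members lie above the dashed line.

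The members called in PPARg fl/-LysCre iDC were mCG11432.1, mCG11523.2 and mCG123381.1. The log2 level of mCG11432.1 was 7.62, 7.65, 8.56 and 7.96 with vehicle and 10.77, 9.90, 10.15 and 9.92 with RSG in mice 5 to 8, so that the groups did not overlap. It was under S/N 3 on all 4 vehicle arrays, and its RSG mean was at least 4.72-fold above their floor (log2 difference 2.24 ± 0.28 SE, limma adjusted p = 0.00372, and 0.00264 to 0.171 over the alternatives). That floor was the probe's own listed vehicle value, and the S/N with RSG was 3.7 to 6.29, so that this is not a fold over the detection limit. In PPARg +/-LysCre iDC its RSG levels were 10.99, 10.98, 11.33 and 10.95, with an S/N of 4.14 to 11.54. They were at least 6.67-fold above the floor of its vehicle arrays, which were all under S/N 3. In macrophages of both genotypes it was above S/N 3 on 1 of 16 arrays.

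For mCG11523.2 the levels were 6.73, 7.09, 6.63 and 6.65 with vehicle and 8.76, 8.46, 9.24 and 8.46 with RSG. It was below the threshold on every vehicle array and on the RSG array of mouse 5. Its RSG mean was at least 3.88-fold above the floor of the vehicle arrays (1.96 ± 0.29 SE, limma adjusted p = 0.00800, and 0.00623 to 0.165 over the alternatives). Its level was at least 4.81-fold higher with RSG in PPARg +/-LysCre iDC, with every vehicle array under S/N 3. Leaving out mouse 7 or mouse 8 took the adjusted p to 0.0504 and 0.0514. In contrast to mCG11432.1, this probe was bright in macrophages, at 12.95 ± 0.42 in vehicle-treated PPARg +/-LysCre cells and 12.23 ± 0.41 in PPARg fl/-LysCre cells (SD, n = 4 each).

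For mCG123381.1 the levels in PPARg fl/-LysCre iDC were 8.84, 5.81, 6.51 and 6.44 with vehicle and 13.03, 11.14, 9.12 and 10.33 with RSG. Mouse 5 had the highest level in both groups, and its vehicle array was the only one of the 4 above the threshold, with an S/N of 14.29. The log2 difference was 4.01 ± 0.75 SE (limma adjusted p = 0.0244, and 0.0104 to 0.462 over the alternatives). Without mouse 5 it was 3.94 with an adjusted p of 0.0104, and the call was lost without mouse 1, 2, 4, 6 or 8, with adjusted p of 0.0521, 0.0649, 0.0540, 0.172 and 0.130. All 4 RSG arrays passed the threshold, and all lay below the 4 RSG arrays of PPARg +/-LysCre iDC (13.55 to 14.20).

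Other members with a large difference in PPARg +/-LysCre iDC had uneven levels among the PPARg fl/-LysCre mice and were not called. The log2 level of mCG141486 in PPARg fl/-LysCre iDC was 8.70, 8.25, 7.62 and 6.71 with vehicle and 13.44, 11.18, 9.21 and 10.15 with RSG. The RSG level was at least 9.04-fold above the vehicle arrays, all under S/N 3, and the difference of 3.18 ± 0.71 SE missed the threshold (limma adjusted p = 0.0625). For mCG7876.2 the levels were 8.62, 8.32, 8.02 and 7.96 with vehicle and 12.26, 10.00, 8.50 and 9.94 with RSG, of which that of mouse 7 was under S/N 3 (difference 1.94 ± 0.54 SE, adjusted p = 0.145). In mouse 5 both probes came close to the levels of PPARg +/-LysCre iDC, in which mCG7876.2 read 12.99, 13.08, 13.49 and 12.58 with RSG. Of the other 7 of the 10 members with the largest differences in PPARg +/-LysCre iDC, mCG123381.1 not counted, mCG14298.1 was under S/N 3 on all 8 arrays and its test compares noise with noise. The adjusted p of the other 6 was 0.312 (mCG116788.1) to 0.957 (mCG21883.1), and 5 of these passed S/N 3 on no more than 2 of the 4 arrays with either treatment, so that their tests rest mostly on undetected values. The levels of mCG21883.1 show how uneven these were, at 7.29, 7.70, 8.20 and 7.47 with vehicle and 9.78, 7.01, 6.78 and 6.15 with RSG.

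Mouse 5 had the highest RSG level among the PPARg fl/-LysCre iDC for all 10 of the members with the largest differences, for 32 of the 47 members with a difference of at least 2 and for 59 of all 173 (34.1%). Over the 47 members, the median difference between RSG and vehicle was 1.55 in mouse 5, 0.66 in mouse 6, 0.17 in mouse 7 and 0.38 in mouse 8, against 2.73 to 2.98 in the PPARg +/-LysCre mice, whose values the rule used. Taking the mean of the mice for each member, the median was 0.77 with all 4 mice and 0.39 without mouse 5. Over all 173 members the medians by mouse were closer together, at 0.17, 0.26, 0.13 and 0.18 in mice 5 to 8. Taking the mean of the mice, the median over all members was 0.21 with all 4 mice. It was 0.18 without mouse 5 and 0.34 without mouse 7. In these medians mouse 5 was thus set apart for members with large differences and not for the set as a whole. Over the members with a difference under 1 its median was -0.13, against 0.25, 0.07 and -0.04 in mice 6 to 8. The RSG array of mouse 5 also had the lowest detection of the group, with 69 members and 13595 probes. Mice 5 and 6 were scanned on 1 day and mice 7 and 8 on another, and the mean of the mouse medians over all members was 0.21 and 0.16 on these days.

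**Figure D4:**
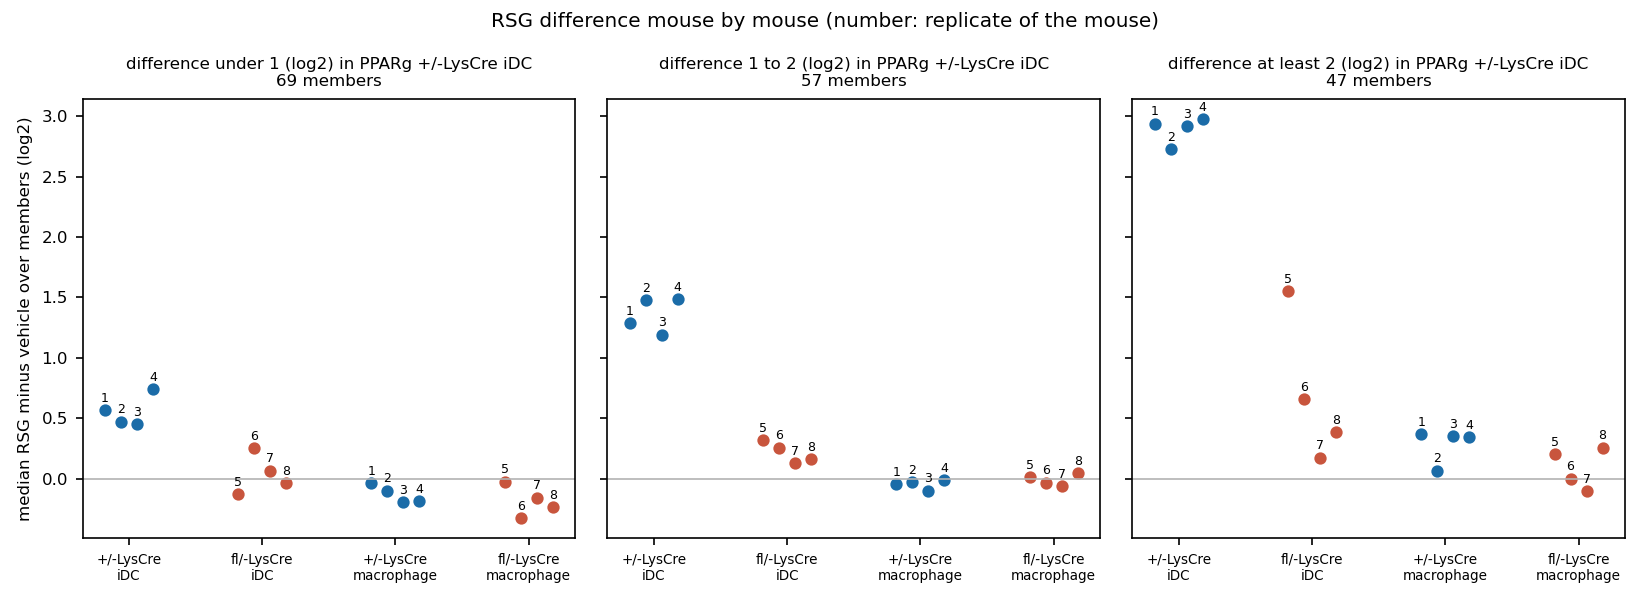
Median log2 difference between RSG and vehicle over the members in each mouse, for members with a difference under 1 (69), from 1 to 2 (57) and of at least 2 (47) in PPARg +/-LysCre iDC, by genotype and cell type, with the number of the mouse. The values of PPARg +/-LysCre iDC define the panels, and in PPARg fl/-LysCre iDC mouse 5 stands at 1.55 in the right panel and at -0.13 in the left.

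Levels in the 2 genotypes differed in both directions at once. With RSG, 151 of the 173 members had a lower mean in PPARg fl/-LysCre than in PPARg +/-LysCre iDC, with a median difference of -0.76 on the log2 scale, and with vehicle 123 had a higher mean in PPARg fl/-LysCre iDC, with a median of 0.26. The rule chose the members for high values in one of these PPARg +/-LysCre groups and low values in the other, so that these counts are descriptions and were not tested. In these cultures, which are bulk samples, fewer cells of a type that expresses a gene and less RNA per cell cannot be told apart. Across the 173 members the difference in PPARg fl/-LysCre iDC went with that in PPARg +/-LysCre iDC (Pearson's r = 0.62, Spearman's rho = 0.46), where the points share their arrays and the rule cuts the range of one axis.

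**Figure D5:**
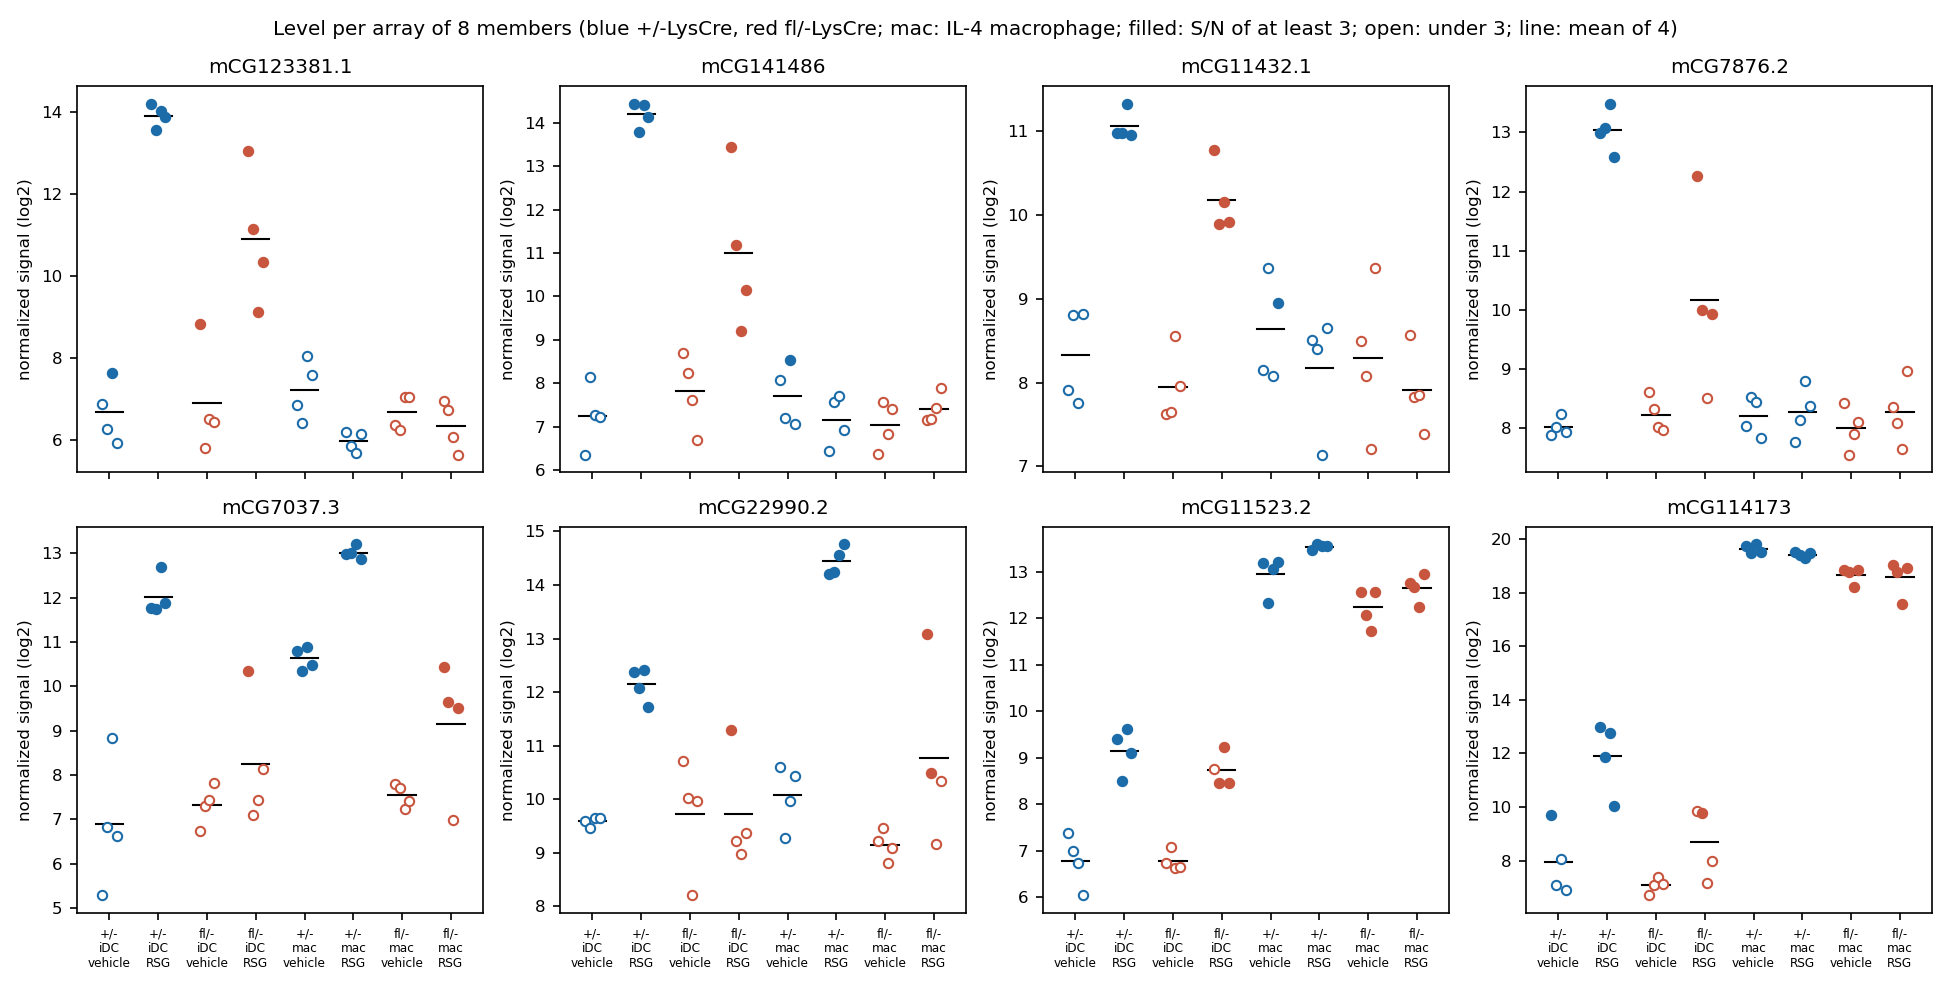
Normalized log2 signal of 8 members on each of the 32 arrays, by group, with a line at the mean of 4 arrays, filled points where the S/N was 3 or more and open points where it was lower. In the upper row the macrophage arrays are nearly all open, whereas mCG7037.3 and mCG22990.2 also rise with RSG in PPARg +/-LysCre macrophages, and mCG11523.2 and mCG114173 are bright on every macrophage array.

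The PPARg +/-LysCre IL-4 macrophages have the same genotype as the iDC of the rule and come from the same mice. After quantile normalization, the middle of the set in these macrophages was at the same place as that of all probes. The median log2 difference was -0.03 over the members and -0.03 over all tested probes. With median scaling the median of all tested probes was the lower one, as given in the section on processing. After quantile normalization 84 members (48.6%) were higher with RSG, against 44.4% of the tested probes. On at least 3 arrays, 88 members (50.9%) and 13.6% of the tested probes were detected with neither treatment. The medians by mouse were 0.02, -0.03, -0.04 and -0.01 in mice 1 to 4. A difference of at least 1 was reached by 12 members (6.94%) and by 1.19% of the tested probes, and one of -1 or lower by 8 members (4.62%) and by 3.35% of the tested probes. Over the 47 members with a difference of at least 2 in iDC the median in these macrophages was 0.30, with 0.37, 0.06, 0.35 and 0.34 in mice 1 to 4. limma called 5 members higher and none lower (2.89% of the members, against 1.2% of all tested probes called in either direction, 0.572% called higher and 0.626% called lower). The mouse as a block gave 8 calls, where the same fit called 2.97% of all tested probes. The level of Ear1 was 17.54 ± 0.14 with vehicle and 19.29 ± 0.16 with RSG in these cells (SD, n = 4), and its part in the members' values was not tested. At an unadjusted p under 0.05 there were 15 members higher and 7 lower, which is 12.7% of the members and compares with 11.7% of the tested probes. Leaving out any 1 of the PPARg +/-LysCre mice left 1 call, mCG22990.2, and leaving out mouse 6 or mouse 8 left 2 and 3. Without mouse 5 there were 7 calls. Since the share of all tested probes called in these fits is not given here, a loss in the members is not told from a general one.

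The largest rise in these macrophages was that of mCG22990.2. Its log2 level was 10.61, 9.28, 9.96 and 10.44 with vehicle and 14.21, 14.24, 14.56 and 14.76 with RSG. The vehicle arrays were all under S/N 3 and the RSG arrays at 18.88 to 33.3. The RSG mean was at least 20.7-fold above the floor of the vehicle arrays (log2 difference 4.37 ± 0.59 SE, limma adjusted p = 0.00244, and 5.26e-05 to 0.0352 over the alternatives). Its levels in PPARg +/-LysCre iDC were 9.59, 9.47, 9.64 and 9.65 with vehicle and 12.38, 12.08, 12.41 and 11.72 with RSG, so that the RSG-treated macrophages were the brighter cells. PPARg fl/-LysCre macrophages with RSG read 13.09, 10.49, 9.17 and 10.34 in mice 5 to 8, with the first far above the others, against 9.21, 9.46, 8.82 and 9.08 with vehicle (1.63 ± 0.59 SE, adjusted p = 1.000). The difference between the genotypes in the response was -2.74 ± 0.84 SE and was not called (adjusted p = 1.000). Before adjustment the limma p was 0.0158 for the response in PPARg fl/-LysCre macrophages and 0.00578 for this difference. All vehicle arrays of these macrophages and the RSG arrays of mice 7 and 8 were under S/N 3. Both fitted values thus include noise levels and are not measured folds.

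For mCG7037.3 the levels in PPARg +/-LysCre macrophages were 10.81, 10.34, 10.89 and 10.49 with vehicle and 12.98, 13.02, 13.21 and 12.87 with RSG (2.39 ± 0.51 SE, limma adjusted p = 0.0364, and 0.000192 to 0.212 over the alternatives). This probe was detected in macrophages before RSG and in iDC only with it. Without RSG it was under S/N 3 on every array of PPARg fl/-LysCre macrophages (7.80, 7.71, 7.23 and 7.41), and with RSG it read 10.43, 9.65, 6.99 and 9.51, of which that of mouse 7 was also under the threshold. The response of 1.61 there was not called (adjusted p = 1.000).

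The remaining calls in PPARg +/-LysCre macrophages were smaller. For mCG142672 (probe 388007) the levels were 7.08, 7.56, 8.22 and 7.19 with vehicle and 9.25, 9.21, 9.49 and 8.25 with RSG (1.54 ± 0.35 SE, limma adjusted p = 0.0445). For mCG1645.2 they were 11.98, 11.13, 12.47 and 11.72 with vehicle and 12.99, 12.81, 13.38 and 13.39 with RSG (1.32 ± 0.27 SE, adjusted p = 0.0331). For mCG147419 they were 10.87, 10.40, 10.57 and 10.52 with vehicle and 11.66, 11.59, 11.61 and 11.71 with RSG (1.05 ± 0.22 SE, adjusted p = 0.0340). Over the alternatives the adjusted p of these probes reached 0.278, 0.197 and 0.198, and the calls were made in 11, 13 and 11 of 20 settings. In each of the 3 probes every RSG array was above every vehicle array, and mCG142672 alone was mostly undetected before RSG. For mCG142672 the lowest RSG value (8.25, S/N 0.72) and the highest vehicle value (8.22, S/N 0.27) were both undetected. Its separation and its fitted difference thus rest in part on noise. The other member probe of mCG142672 was not called in these macrophages. Among the uncalled members, mCG23510.1 read 7.34, 10.26, 8.19 and 9.08 with vehicle and 10.71, 11.56, 11.37 and 10.15 with RSG (2.23 ± 0.65 SE, adjusted p = 0.138), so that 1 RSG array overlapped the vehicle arrays.

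In contrast, mCG123381.1, mCG141486 and mCG7876.2, which had the largest or nearly the largest differences in iDC, were near the detection limit in macrophages. Over the 16 macrophage arrays, mCG123381.1 and mCG7876.2 never reached S/N 3 and mCG141486 did so once, on a vehicle array. The log2 levels ranged from 5.65 to 8.05 for mCG123381.1 and from 7.56 to 8.97 for mCG7876.2. No fold is given for these, since both treatments were below the threshold.

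In PPARg fl/-LysCre macrophages no member was called, as was no probe of the 16620 tested (0% of all). Without adjustment, 8 members were higher and 6 lower at a p under 0.05 (8.09% of the members against 2.99% of the tested probes), and the methods' t-test with adjustment called no member either. The median difference over the members was -0.06, against -0.01 over all tested probes, where 76 members (43.9%) and 11.6% of the tested probes were detected on 3 arrays with neither treatment, and the medians by mouse were 0.06, -0.07, -0.11 and -0.07 in mice 5 to 8. Whether the response in macrophages differed between the genotypes was tested directly. No member was called (0.00602% of all tested probes were called), and the methods' t-test called none. At an unadjusted p under 0.05 the response of 3 members was higher and that of 6 lower in PPARg fl/-LysCre macrophages (5.20% of the members against 3.45% of the tested probes). Without mouse 5, 1 member was called with a lower response, and without mouse 7, 1 member was called higher with RSG in PPARg fl/-LysCre macrophages. The shares of all tested probes called in these fits are not given here, so that these counts are no result about the members.

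Vehicle-treated cells of the PPARg fl/-LysCre mice, which the rule did not use, allowed a comparison of the cell types. Of the 173 members 37 (21.4%) were called, against 27.6% of all tested probes. Of these, 29 (16.8% of the members, against 15.2% of the tested probes) were lower in iDC and 8 (4.62%, against 12.4%) were higher. The median log2 difference of iDC from macrophages was -0.31 over the members and -0.06 over the tested probes. The 29 members that were brighter in macrophages had a median level of 7.89 in vehicle-treated PPARg fl/-LysCre iDC and 10.08 in the macrophages. Their median level in PPARg +/-LysCre cells was 8.19 in vehicle-treated iDC, 9.50 in RSG-treated iDC and 10.43 in vehicle-treated macrophages, and for 9 of the 29 the RSG-treated iDC exceeded the macrophages.

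The widest separation was that of mCG114173. It read 18.84, 18.76, 18.21 and 18.86 in vehicle-treated PPARg fl/-LysCre macrophages and 6.71, 7.09, 7.41 and 7.12 in the iDC of the same mice, where it was under S/N 3 on every array, so that it was at least 3076-fold higher in macrophages (log2 difference of iDC from macrophages -11.59 ± 0.58 SE, limma adjusted p = 1.96e-14). In PPARg +/-LysCre iDC it read 9.70, 7.10, 8.06 and 6.91 with vehicle and 12.98, 11.88, 12.77 and 10.04 with RSG. Its RSG levels in iDC thus remained more than 6 log2 units below the macrophages, which read 19.48 to 19.81 in these mice with vehicle. RSG did not change it in PPARg +/-LysCre macrophages beyond the spread (-0.21 ± 0.26 SE, adjusted p = 0.873).

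Other members brighter in macrophages included mCG11523.2, which was at least 44.0-fold higher than in iDC (-5.46 ± 0.26 SE, limma adjusted p = 8.61e-15), and mCG1031930.1, which was at least 12.8-fold higher (-3.68 ± 0.43 SE, adjusted p = 1.15e-07). The fitted difference was -3.54 ± 0.39 SE for mCG113179.1 (limma adjusted p = 3.29e-08) and -3.21 ± 0.57 SE for mCG15277.2 (adjusted p = 4.95e-05). In iDC, mCG113179.1 passed S/N 3 on 1 and mCG15277.2 on 2 of the 4 arrays, so that these differences are not measured folds. For mCG15277.2 the macrophages read 12.45, 11.27, 11.23 and 11.54 and the iDC 6.53, 8.40, 9.63 and 9.10, without overlap. With RSG the PPARg +/-LysCre iDC read 10.01, 11.32, 11.32 and 10.49 for this probe, against 8.92, 7.90, 5.92 and 7.88 with vehicle. Beyond these, mCG16772.1 was at least 7.78-fold higher in macrophages (-3.09 ± 0.55 SE, adjusted p = 5.95e-05), and with RSG its PPARg +/-LysCre iDC reached 11.22, 10.87, 11.19 and 10.37, above the 9.17 to 10.34 of the vehicle-treated macrophages.

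The 8 members brighter in iDC had a median level of 9.55 there without RSG in PPARg fl/-LysCre mice, and of 8.05 in PPARg +/-LysCre mice. The 8 were picked as high in the first of these groups, and the rule picked all members as mostly undetected in the second. Selection thus shapes both levels, also for the single members below, and the genotypes were not tested against each other here. The largest difference was that of mCG22780.2, which read 8.11, 10.26, 10.47 and 10.89 in vehicle-treated PPARg fl/-LysCre iDC and 7.60, 7.02, 7.57 and 6.98 in macrophages, all under S/N 3 (at least 6.23-fold, 2.64 ± 0.45 SE, limma adjusted p = 3.65e-05). The first of these iDC arrays, from mouse 5, was itself under S/N 3. In PPARg +/-LysCre iDC the same probe read 7.36, 7.28, 8.23 and 6.93 with vehicle, under the threshold on every array, and 12.23, 12.04, 12.83 and 12.16 with RSG. Further fitted rises were 2.44 ± 0.43 SE for mCG1028437.1 (limma adjusted p = 4.43e-05) and 1.79 ± 0.31 SE for mCG147307 (adjusted p = 4.65e-05). Each of these probes passed S/N 3 on 1 of the 4 macrophage arrays, so that the rises are not measured folds. The level of mCG142063, which was under S/N 3 on all 4 macrophage arrays, was at least 3.36-fold higher in iDC (fitted 1.82 ± 0.49 SE, limma adjusted p = 0.00373). A fitted rise of 1.44 ± 0.55 SE for mCG141924 (limma adjusted p = 0.0381, and 0.0132 to 0.300 over the alternatives) was less firm, as it was called in 14 of 20 settings. It was 0.90 without mouse 8 and 1.16 without mouse 7, when it was not called. The vehicle-treated PPARg fl/-LysCre macrophage arrays of this probe were all under S/N 3, and 2 of the 4 iDC arrays passed it. The fitted rise thus includes noise levels on both sides. For mCG142063 the vehicle-treated iDC of PPARg fl/-LysCre mice read 9.36, 9.65, 9.72 and 8.83, which was close to the RSG-treated iDC of PPARg +/-LysCre mice (9.31, 9.49, 9.79 and 10.05), and RSG did not raise it further (8.18, 10.27, 10.07 and 8.77). The genotypes share no mouse and were scanned on different days, so that genotype and scan day cannot be told apart in such levels.

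Whether RSG acted differently in the cell types was tested within the PPARg fl/-LysCre mice. The difference between iDC and macrophages in the response had a median of 0.34 over the members and of 0.03 over the tested probes. One member, mCG123381.1, was called (0.578% of the members, against 0.108% of all tested probes in either direction, 0.0782% higher and 0.0301% lower), with a larger response in iDC by 4.33 ± 0.85 SE (limma adjusted p = 0.0345, and 0.00361 to 0.635 over the alternatives). At an unadjusted p under 0.05 there were 15 members with a larger and 5 with a smaller response in iDC (11.6% of the members against 5.93% of the tested probes). In macrophages of these mice mCG123381.1 read 6.37, 6.25, 7.05 and 7.05 with vehicle and 6.96, 6.75, 6.08 and 5.65 with RSG, under S/N 3 on all 8 arrays, and 3 of the 4 vehicle arrays of the iDC were under it too. The value of 4.33 is thus a fitted difference that includes noise levels and not a measured fold. The fit took its spread from all 32 arrays, those of the rule included, and the call was lost with only the arrays compared (adjusted p = 0.353) and with the methods' t-test (0.635). It was also lost without any 1 of mice 1, 2, 3, 4, 6, 7 or 8 (adjusted p of 0.0724 to 0.306) and kept without mouse 5 (0.00361), and with the mouse as a block 2 members were called, among 0.307% of all tested probes.

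The 3 members with a symbol had moderate levels and no called response to RSG outside the cells of the rule. Aldh3a1, which oxidizes aldehydes, read 10.20, 9.92, 10.92 and 8.74 with vehicle and 11.46, 11.41, 12.11 and 11.05 with RSG in PPARg +/-LysCre iDC. The iDC of PPARg fl/-LysCre mice read 10.20, 10.87, 9.48 and 9.29 with vehicle, all under S/N 3, and 11.08, 10.12, 10.32 and 10.77 with RSG, of which those of mice 5 and 8 passed the threshold (0.61 ± 0.44 SE, limma adjusted p = 0.688). This difference was 0.33 without mouse 8 and 1.07 without mouse 6. It was under the threshold on all 16 macrophage arrays.

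Lgals7 read 8.76, 8.17, 7.98 and 7.63 with vehicle and 10.05, 8.99, 9.07 and 8.86 with RSG in PPARg +/-LysCre iDC. It was detected on all 16 macrophage arrays, at 10.33 ± 0.53 (SD, n = 4) in vehicle-treated PPARg +/-LysCre cells and 9.57 ± 0.55 in PPARg fl/-LysCre cells. In vehicle-treated PPARg fl/-LysCre cells it was lower in iDC than in macrophages by 0.92 ± 0.29 SE on the log2 scale (limma difference -0.92, adjusted p = 0.0129), with iDC levels of 8.51, 8.83, 8.84 and 8.42. The difference between RSG and vehicle was 0.17 ± 0.28 SE in PPARg fl/-LysCre iDC (adjusted p = 0.921), with 0.061 without mouse 7 and 0.31 without mouse 6, and 0.39 ± 0.29 SE in PPARg +/-LysCre macrophages (adjusted p = 0.730), with 0.19 without mouse 3. Neither was called.

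Zfp945 read 8.55, 9.54, 8.58 and 7.07 with vehicle and 9.21, 9.83, 9.62 and 9.47 with RSG in PPARg +/-LysCre iDC, where the second vehicle array overlapped the RSG arrays. Its S/N on the RSG arrays was 3.91 to 5.49. In PPARg fl/-LysCre iDC it was under S/N 3 on every vehicle array and on 3 of the 4 RSG arrays, and the log2 difference was 0.27 ± 0.38 SE (limma adjusted p = 0.895), and 0.41 without mouse 7. In PPARg +/-LysCre macrophages, where no array detected it, the difference has no meaning as a fold, and in PPARg fl/-LysCre macrophages, where 1 vehicle and 2 RSG arrays detected it, it was 0.39 ± 0.42 SE (limma adjusted p = 1.000), and 0.037 without mouse 8, 0.11 without mouse 7 and 1.04 without mouse 5.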

How the data were processed

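Digoxigenin-labeled cRNA was hybridized to single-color Applied Biosystems arrays and read by chemiluminescence. The authors deposited the signal intensity per probe, its standard deviation, an assay-normalized signal, quality flags and the S/N, a score given as deposited. A table of ratios that the authors deposited beside these served as an alternative. At an S/N of 1 or less the listed signal was nearly always the probe's own standard deviation (417900 of 418438 values), which is noise and not a measurement.

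Signals were log2 transformed and quantile normalized over 32 arrays in R 4.3.3. The 16620 probes with an S/N of at least 3 on at least 3 of 4 arrays of at least 1 group were tested with limma 3.58.1, with 1 mean per group, over the 16 arrays of a cell type or over all 32 across cell types. All 173 members passed this filter, which the rule ensures. A call needed a Benjamini-Hochberg adjusted p under 0.05 over all tested probes and a change of at least 1.5-fold. The fit was also run on simulated data with independent normal noise on each array. That setting lacks the correlation between arrays of a mouse and the values set by noise, so that it does not bear on either. Replicates are mice. Tables and plots were made with Python 3.11.15, numpy 2.4.6, pandas 2.3.3, scipy 1.17.1 and matplotlib 3.10.9. The number of arrays limits the precision.

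The labels give the mouse of each array. Each array was set against its group mean, and these deviations correlated with a median of 0.284 (0.00953 to 0.623) for the vehicle and RSG arrays of a mouse within a cell type and of -0.0909 for different mice. Each of 4 scan days held 2 mice of 1 genotype. Alternatives were other scalings (median, the authors' ratios, assay-normalized signal, an offset at the 10th percentile), other filters and fold thresholds, the methods' t-test, only the arrays compared, a block for the mouse or for the scan day, and fits without each mouse in turn.

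The members and lists were chosen with earlier results of these data known. Named are members with a symbol, the 5 largest rises and falls among called members of each test, the 10 largest differences in PPARg +/-LysCre iDC and the probes next to the threshold. The members listed from the repeated rule and named in passing (mCG125252.1 and the like) were added after their values were seen. Probes without a symbol in the RefSeq table (GRCm38.p6) are named by the identifier in the files. Of 33012 probes 311 had a symbol. The authors' image analysis settings are not given in the sources used here.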

Additional observations from a re-analysis of the deposited data

Results flagged for a closer look

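The response of mCG123381.1 to RSG differed between iDC and macrophages of PPARg fl/-LysCre mice by 4.33 on the log2 scale in the limma interaction term (adjusted p = 0.0345), although the macrophage arrays were all under S/N 3. Among 227 sets of 4 values, 10 held 1 array far from the other 3, where chance gives about 1 in 20. The measure is the gap to the nearest array as a share of the whole range. In PPARg +/-LysCre iDC with RSG these were mouse 3 for mCG11432.1 (0.915) and mCG7037.3 (0.841) and mouse 4 for mCG21883.1 (0.864), and in these the outlying array was still above S/N 3. In PPARg +/-LysCre macrophages they were mouse 2 with vehicle for mCG11523.2 (0.842) and, with RSG, mouse 3 for mCG11432.1 (0.839) and mouse 4 for mCG141924 (0.833). In PPARg fl/-LysCre macrophages they were mouse 7 with vehicle for mCG114173 (0.856), and with RSG mouse 7 for mCG147419 (0.847) and mouse 6 for mCG1028437.1 (0.830). In vehicle-treated PPARg fl/-LysCre iDC it was mouse 5 for mCG1031930.1 (0.835).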

How the results depend on the processing

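Of 560 values of named members under the alternatives, 497 kept their direction and call, 61 lost the call and 2 turned, both of Aldh3a1 and neither called, which ranged without 1 mouse from -0.33 (mouse 1) to 0.35 in PPARg +/-LysCre macrophages and from -0.34 (mouse 7) to 0.38 in PPARg fl/-LysCre macrophages, where all arrays were under S/N 3 and the sign has no meaning. Members called with RSG in PPARg fl/-LysCre iDC (3) numbered 0 with the methods' t-test, 1 when only the arrays compared were fitted, 5 with the mouse as a replicate block or with the scan day as a block, and 1 to 3 without 1 mouse. In PPARg +/-LysCre macrophages (5) they numbered 1 without the detection filter, 8 with the mouse as a replicate block and 1 to 7 without 1 mouse. The difference in response between the cell types (1) gave 2 with the assay-normalized signal, the stricter filter, the offset or the mouse as a replicate block, 0 without the filter, with the methods' t-test or from only the arrays compared, and 0 to 1 without 1 mouse. The counts for RSG in PPARg fl/-LysCre macrophages and for the difference between genotypes (0 each) were 0 to 1 without 1 mouse. Counts from fits without 1 mouse are given without the share of all tested probes called in them. Without 1 mouse the median difference over members was 0.18 to 0.34 in PPARg fl/-LysCre iDC and -0.066 to 0.050 in PPARg +/-LysCre macrophages. The set itself (173) held 63 probes when S/N under 3 was required on all 4 vehicle arrays, and 380 to 444 without 1 mouse, where fewer arrays have to meet the rule. Calls of the cell type comparison stayed within 1.5 times. The mouse as a block changed no other count by over 1.5 times. With median scaling the median over all tested probes moved from -0.03 to -0.18 for RSG in PPARg +/-LysCre and from -0.01 to -0.13 in PPARg fl/-LysCre macrophages, and that over the members from -0.03 to -0.04 and from -0.06 to -0.10. The cause of these shifts was not tested. Signals near background limit many members, since noise sets the listed value under S/N 1.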
